A study of Bos taurus with 18 samples.

Results

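A set of 6 enzymes that remove superoxide, peroxides and quinones were followed in milk cells: the superoxide dismutases SOD1 and SOD2, catalase (CAT), the glutathione peroxidases GPX1 and GPX4, and the quinone reductase NQO1. The members are the probe sets (groups of short probes for 1 transcript on the array) that the platform annotation assigns to exactly 1 of these 6 genes, and they were chosen by name. There were 7 such probe sets, 2 of them for GPX1 and 1 for each other gene, among 24016 tested probe sets and 9155 named genes. RNA came from the cells of milk, which hold macrophages, lymphocytes, neutrophils and shed udder epithelium, and each cow was measured on 1 Affymetrix bovine array. The cows had mastitis (udder inflammation, n = 6), endometritis (inflammation of the uterine lining, n = 6) or neither (healthy, n = 6). Diseased cows were in lactation 1 to 8 and were sampled 10 to 220 days after calving. The healthy cows had below 100000 cells per ml of milk, no sign of disease, and were sampled mostly 10 to 100 days after calving. Their age is given as 2 to 4 years, while 1 of them is said to be in lactation 8, and no age is given for the diseased cows. The labels name neither breed nor the agent of the mastitis, and stage of lactation and age can differ between the groups.

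Superoxide dismutases turn superoxide into hydrogen peroxide and oxygen. SOD1 is the copper and zinc enzyme of the cytosol, and SOD2 is the manganese enzyme of the mitochondrial matrix, whose gene is a well-known target of inflammatory signalling through NF-kappaB. Catalase breaks hydrogen peroxide down in peroxisomes, GPX1 reduces it in the cytosol with glutathione, and GPX4 reduces lipid peroxides in membranes. NQO1 reduces quinones and is a standard target of the transcription factor NRF2. Neutrophils, the cells that enter milk in mastitis, make superoxide with the phagocyte NADPH oxidase.

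All values are log2 normalised intensities, where each step of 1 stands for a doubling, and their median over all probe sets and arrays is 2.55. A fold change rests on reading the deposited values as log2, since no source used here states the base of the logarithm. Levels of different probe sets are not compared with each other, because probe sets differ in how brightly they read. Differences were tested in limma with a two-sided test, with p adjusted over all 24016 probe sets, and are given with their standard error (SE). A gene was called at an adjusted p under 0.05.

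The 2 superoxide dismutases moved in opposite directions in mastitis. SOD2 read 11.09 at the lowest, 12.15 at the median and 12.58 at the highest mastitis array, against 8.35, 9.29 and 10.30 on healthy arrays. Every mastitis array lay above every healthy array. SOD2 averaged 12.01 ± 0.53 in mastitis and 9.36 ± 0.78 in healthy milk cells (SD, n = 6 each), a rise of 2.66 ± 0.41, or 6.32-fold (limma adjusted p = 0.000394). SOD1 read 6.00, 7.14 and 8.31 at the lowest, median and highest mastitis array, against 9.46, 10.51 and 10.63 on healthy arrays. Here every mastitis array lay below every healthy array. SOD1 averaged 7.06 ± 0.98 in mastitis and 10.32 ± 0.44 in healthy milk cells (SD, n = 6 each) and fell by 3.25 ± 0.47, which is 9.55-fold lower (limma adjusted p = 0.000238). Of the 9155 genes, 98.1% had a lower difference than SOD2 and 0.721% a lower one than SOD1.

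**Figure D1:**
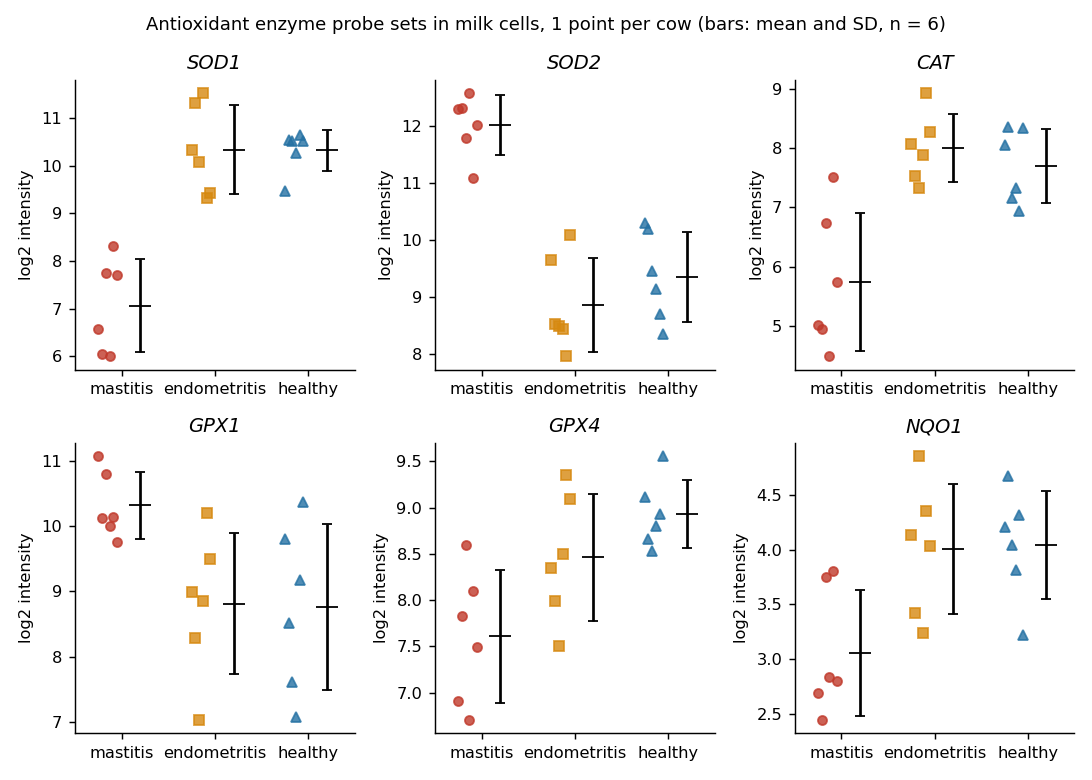
Log2 intensity of the 6 enzymes in milk cells of cows with mastitis, endometritis or neither, 1 point per cow, with the group mean and SD (n = 6) beside the points and a separate vertical scale in each panel. Mastitis arrays lie above all others for SOD2 (11.09 to 12.58) and below all others for SOD1 (6.00 to 8.31), while the endometritis and healthy points overlap in every panel.

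Catalase was also lower in mastitis. Its values were 4.49, 5.38 and 7.51 at the lowest, median and highest mastitis array, against 6.95, 7.68 and 8.36 on healthy arrays. All 6 mastitis arrays were under the healthy mean, and the groups overlapped through the highest mastitis array, number 5. CAT averaged 5.74 ± 1.17 in mastitis and 7.69 ± 0.63 in healthy milk cells (SD, n = 6 each) and fell by 1.95 ± 0.47, or 3.87-fold lower (limma adjusted p = 0.00803).

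The glutathione peroxidases differed from each other in direction. GPX4 read 6.71, 7.67 and 8.60 at the lowest, median and highest mastitis array, against 8.53, 8.86 and 9.56 on healthy arrays. It fell by 1.32 ± 0.35 (limma adjusted p = 0.0128), and the highest mastitis array, number 3, was the only mastitis array within the healthy range. GPX1 read 9.75, 10.14 and 11.08 at the lowest, median and highest mastitis array, against 7.06, 8.85 and 10.38 on healthy arrays. All 6 mastitis arrays were above the healthy mean, but healthy arrays spread widely (SD 1.28, against 0.51 in mastitis). Its difference of 1.56 ± 0.57 did not pass (limma adjusted p = 0.0698, 95% interval 0.35 to 2.78). The other GPX1 probe set was at or under the array median of 2.55 on all 6 healthy and 3 of 6 mastitis arrays, with a highest value of 3.14 in mastitis, and it did not pass either (adjusted p = 0.131).

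NQO1 was read near the floor of the array in mastitis. Its values were 2.45, 2.82 and 3.81 at the lowest, median and highest mastitis array, against 3.22, 4.12 and 4.67 on healthy arrays. The groups overlapped through mastitis arrays 3 and 5, at 3.75 and 3.81. NQO1 fell by 0.99 ± 0.31 (limma adjusted p = 0.0374), and 1 mastitis array was at or under 2.55, so the fall can be larger than printed. Leaving out single arrays ended its call in 9 of 18 cases, namely any of healthy 1 to 5 or of mastitis 1, 2, 4 and 6 (limma adjusted p up to 0.0865).

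In all, limma called 1 of the 6 genes higher and 4 lower in mastitis against healthy. The same rule called 11.3% of the 9155 genes higher and 15.8% lower, 27.1% in all. The median difference of the 6 members was -1.15, against -0.01 over all genes. SOD1 and SOD2 were the members whose groups did not overlap at all, a separation that 16.6% of genes showed. With arrays scaled to the hybridisation controls, which moved every difference between mastitis and healthy up by 0.25, the falls of GPX4 (adjusted p = 0.191) and NQO1 (adjusted p = 0.273) no longer passed, while those of SOD1 and CAT and the rise of SOD2 did. RNA integrity was followed by how much brighter GAPDH was read at its 3′ end than at its 5′ end. With that value as a covariate in limma, GPX4 (-1.50, adjusted p = 0.0576) and NQO1 (-0.69, adjusted p = 0.388) did not pass. The GPX4 fall was thus larger and the NQO1 fall smaller than without it, and the GPX1 difference was 0.35. That value averaged 0.39 in mastitis and 0.88 in healthy cows, so as a covariate it can take up part of a group difference.

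**Figure D2:**
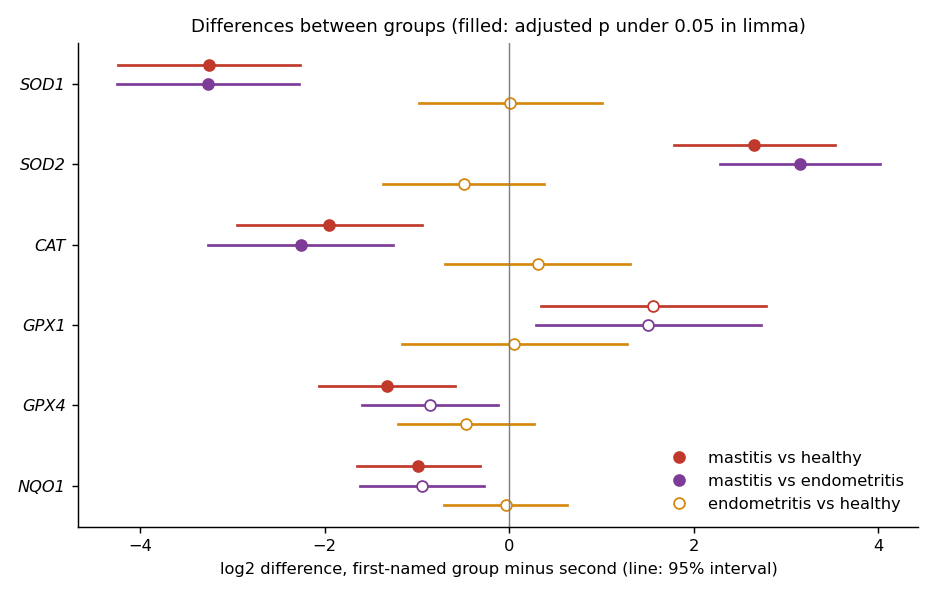
Log2 difference of each enzyme between groups, first-named group minus second, with its 95% interval from limma, for mastitis against healthy, mastitis against endometritis and endometritis against healthy. Filled points passed an adjusted p under 0.05, as SOD1 (-3.25), SOD2 (2.66), CAT (-1.95), GPX4 (-1.32) and NQO1 (-0.99) did in mastitis against healthy, and every point of endometritis against healthy is open.

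Cell type markers moved with these differences. Of 11 neutrophil markers, 6 rose in mastitis, among them CXCR1, S100A8 and S100A9, and their summed log2 level was 71.8 to 85.2 in mastitis, 40.2 to 61.9 in endometritis and 44.7 to 60.7 in healthy milk cells. PGLYRP1 was at or under 2.55 on every array of each group, and CATHL1 and BPI were so in endometritis and healthy cows, with CATHL2 also in endometritis. Of 14 markers of milk-secreting cells, 13 fell in mastitis, and their summed level was 78.5 to 119.5 in mastitis, 129.2 to 175.1 in endometritis and 151.2 to 172.9 in healthy milk cells. None of these 14 was at background on all arrays of a group, so each was read above 2.55 on at least 1 mastitis array. The sum of 119.5 was that of mastitis array 1, with 93.4 next, on array 2. Epithelial structure markers gave 6 of 8 lower and summed to 20.6 to 23.3 in mastitis, 26.3 to 44.5 in endometritis and 32.9 to 45.6 in healthy cows. Of these, KRT8 was at or under 2.55 on every array of each group, and CLDN3 was so in mastitis. None of 7 macrophage markers and none of 9 T cell markers passed in limma in any of the 3 comparisons, and 1 of the 7 macrophage markers had an unadjusted p under 0.05, in mastitis against healthy. Of 4 B and plasma cell markers 1, BLK, was called higher in mastitis against healthy, by 0.53 (adjusted p = 0.0347), and their summed level was 10.2 to 14.3 in mastitis, 10.7 to 11.6 in endometritis and 10.6 to 13.0 in healthy cows. In RNA from mixed cells, fewer cells of a type and less RNA per cell cannot be told apart, and the part of cell makeup in the enzyme differences was not tested. The GAPDH difference was 0.08 to 0.71 in mastitis, 0.30 to 1.05 in endometritis and 0.35 to 1.52 in healthy cows. The mean of the dap control probe sets, designed for control RNA added before labelling, was 5.54 to 6.66 in mastitis, 5.89 to 7.88 in endometritis and 6.79 to 9.03 in healthy cows, so mastitis and healthy arrays did not overlap. The part of this measure in the enzyme differences was not tested.

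The contrast between the dismutases was followed within each array as SOD2 minus SOD1. Its sign on an array has no meaning, since 2 probe sets are set against each other, and only its difference between groups is read. Mastitis arrays 1 to 6 had 5.71, 6.26, 4.05, 6.59, 2.78 and 4.31. Endometritis arrays 1 to 6 had -0.68, -2.79, -1.57, -3.08, -1.36 and 0.68. Healthy arrays 1 to 6 had 0.84, -0.34, -1.06, -1.13, -1.93 and -2.16. The lowest mastitis array thus stood above the highest of the other groups. The mean was 4.95 ± 1.48 in mastitis, -1.47 ± 1.38 in endometritis and -0.96 ± 1.10 in healthy milk cells (SD, n = 6 each). Mastitis exceeded healthy by 5.91 ± 0.75 (SE) and endometritis by 6.42 ± 0.83 (SE), given as a description with no test, because the opposite moves of the pair were known when it was chosen. Endometritis differed from healthy by -0.50 ± 0.72 (SE), which did not pass (exact two-sided permutation p = 0.498 over 924 arrangements).

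Within mastitis, the arrays high in SOD2 were low in SOD1. SOD2 was highest on mastitis array 4 (12.58), where SOD1 was lowest (6.00), and lowest on array 5 (11.09), where SOD1 was highest (8.31). CAT and NQO1 were also highest on array 5 (7.51 and 3.81), and array 3 came next for SOD1, CAT and NQO1 and highest for GPX4. From lowest to highest, CAT ordered the 6 mastitis arrays exactly as SOD1 did, as 4, 2, 1, 6, 3 and 5. Arrays 5 and 3 had the lowest summed neutrophil markers of the mastitis arrays (71.8 and 72.5) and the highest summed macrophage markers (55.7 and 55.9). Their summed secretory markers were also the lowest of the mastitis arrays (80.1 and 78.5). Array 1 had the highest summed secretory markers of that group (119.5), with SOD1 at 6.58. Outside mastitis, the array with the most neutrophil marker signal in each group, endometritis 6 (61.9) and healthy 1 (60.7), had the highest SOD2 of its group (10.10 and 10.30). SOD1 on those arrays was the second lowest of its group in endometritis (9.42) and the lowest in healthy cows (9.46). Other arrays did not all follow this. Endometritis 4, next in neutrophil markers in its group (49.8), had the highest SOD1 of its group (11.52), with SOD2 at 8.44. Healthy 2, next in its group (50.1), was also next in SOD2 (10.19), with SOD1 at 10.53. Endometritis 5 was low in both dismutases, at 7.96 for SOD2 and 9.32 for SOD1, and highest of its group in CAT (8.93), GPX1 (10.20) and GPX4 (9.35). It also had the highest summed macrophage markers (56.4) and the lowest summed secretory markers (129.2) of its group. Summed T cell markers were highest of the endometritis arrays on 4 and 2 (57.7 and 51.9), where SOD1 was highest (11.52 and 11.32). Mastitis arrays 5 and 6 had the highest of their group (45.5 and 44.3), with SOD1 at 8.31 and 7.70. Mastitis 2 had the lowest (24.2), with SOD1 at 6.05, while SOD1 was lowest on mastitis 4 (34.3). Healthy 2 had the lowest of its group (26.2), with SOD1 at 10.53. The relation of SOD1 to these sums was not tested.

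**Figure D3:**
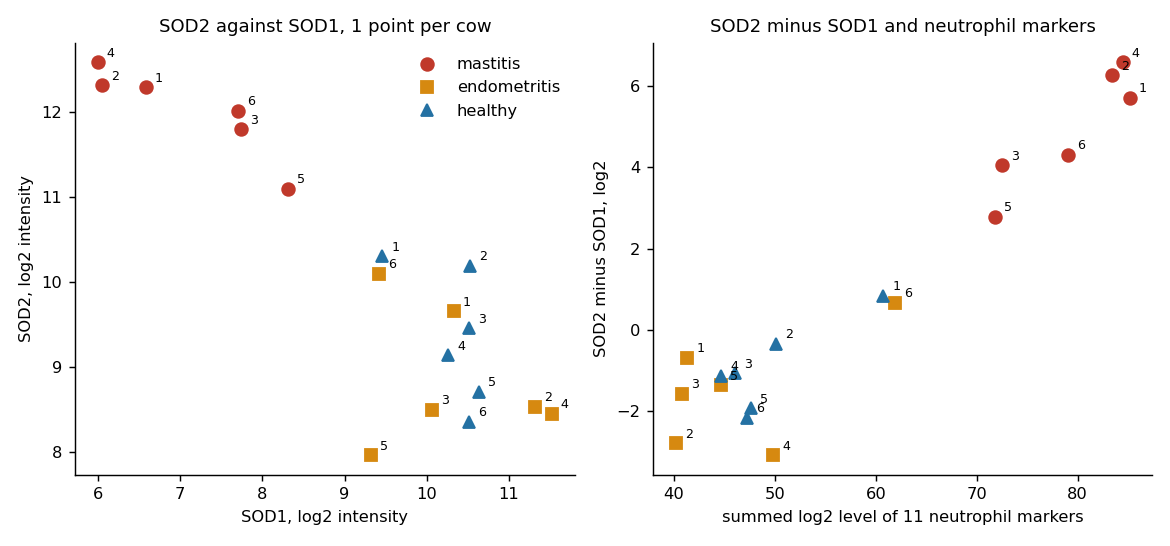
Left, SOD2 against SOD1 in log2 intensity, 1 point per cow, numbered by array within its group. Right, SOD2 minus SOD1 against the summed log2 level of 11 neutrophil markers; mastitis arrays lie at 71.8 to 85.2 on the marker axis, and endometritis 6 and healthy 1, at 61.9 and 60.7, lie next to them.

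The comparison of mastitis with endometritis sets inflammation of the udder against inflammation elsewhere. It shares the mastitis arrays with the comparison above, so the values are given side by side and not as a second line of evidence. SOD2 was 3.15 ± 0.41 higher in mastitis than in endometritis, where it read 7.96, 8.51 and 10.10 at the lowest, median and highest array (limma adjusted p = 0.000163). SOD1, at 9.32, 10.20 and 11.52 in endometritis, was lower in mastitis, with a difference of -3.27 ± 0.47 (limma adjusted p = 0.000309). CAT, at 7.33, 7.98 and 8.93 in endometritis, was lower as well, with a difference of -2.26 ± 0.47 (limma adjusted p = 0.00458). These 3 of 6 genes passed, while the rule called 20.0% of all genes, 9.14% higher and 10.9% lower. Mastitis and endometritis arrays did not overlap for either dismutase, a separation shown by 11.0% of genes. The lowest, median and highest endometritis arrays were at 7.03, 8.93 and 10.20 for GPX1, at 7.51, 8.42 and 9.35 for GPX4 and at 3.24, 4.08 and 4.85 for NQO1, and all 3 genes overlapped with mastitis. NQO1 (-0.95, adjusted p = 0.0557), GPX4 (-0.86, adjusted p = 0.121) and GPX1 (1.51, adjusted p = 0.0959) did not pass. GPX4 passed without mastitis 3 (adjusted p = 0.0457), and NQO1 passed without any of mastitis 3, mastitis 5, endometritis 2, endometritis 4 and healthy 6.

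In endometritis against healthy, none of the 6 genes passed, and 0 of the 6 had an unadjusted p under 0.05. Here limma called 0% of genes, and 1047 of 24016 probe sets (4.36%) had an unadjusted p under 0.05. The largest member difference was that of SOD2, at -0.49 ± 0.41 with a 95% interval from -1.36 to 0.38, followed by GPX4 at -0.47 ± 0.35 (-1.21 to 0.27). CAT was 0.31 higher (-0.70 to 1.31), GPX1 0.05 higher (-1.16 to 1.27) and SOD1 0.01 higher (-0.98 to 1.00), and NQO1 had a difference of -0.04 (-0.71 to 0.63). None of the 6 genes separated the endometritis from the healthy arrays, as 0.295% of genes did. Differences of about 2-fold in either direction lie inside the interval of SOD1, and larger ones in that of GPX1, so the arrays cannot show that these enzymes were alike in both groups.

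By order of group means, SOD1 was lowest in mastitis, with healthy and endometritis differing by less than their spread. SOD2 ran from endometritis over healthy, which did not differ beyond their spread, up to mastitis. CAT and NQO1 had the lowest mean in mastitis, with healthy and endometritis above it. For both genes the mastitis arrays overlapped each of the other groups, and NQO1 was not called between mastitis and endometritis. GPX4 ran from mastitis over endometritis to healthy, and neither neighbour in that order differed by a called amount. GPX1 had mastitis highest, with no called difference anywhere.

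The enzymes stand among other genes of peroxide and thiol metabolism. Across 67 further measured antioxidant genes, with each of them counted once and the oxidase subunits left out, 7 rose (10.4%), 16 fell (23.9%) and 44 did not pass in mastitis against healthy. The share that rose was near the 11.3% of all genes, and the share that fell stood above the 15.8% of all genes, with no test of that difference. Their median difference was -0.12, against -0.01 over all genes. In endometritis against healthy 0 of the 67 passed in limma, and 2 had an unadjusted p under 0.05. In mastitis against endometritis 4 rose, 13 fell and 50 did not pass.

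Among the remaining dismutase genes, the extracellular enzyme SOD3 was at background (at or under 2.55) on all mastitis arrays and on 5 of 6 healthy arrays. CCS, the copper chaperone that loads SOD1, read 4.25 in mastitis and 4.51 in healthy milk cells on average and did not pass (difference -0.26 ± 0.50, limma adjusted p = 0.796). The 95% interval of CCS was -1.32 to 0.80. GPX2, GPX3 and GPX7 averaged 2.53 to 2.65 in mastitis and 2.49 to 2.72 in healthy milk cells, close to background, and did not pass.

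Peroxiredoxins reduce peroxides through cysteine thiols. Of 7 genes of this list 1 rose, 1 fell and 5 did not pass. PRDX5 rose by 1.78 ± 0.46 (limma adjusted p = 0.0122), with all mastitis arrays above all healthy ones, but was 1.02 higher without passing when the GAPDH value was a covariate (adjusted p = 0.281). The mitochondrial PRDX3 fell by 1.81 ± 0.34 (adjusted p = 0.00165), but its other probe set was 0.55 higher and did not pass. SRXN1, which repairs overoxidised peroxiredoxins, was 1.77 ± 0.68 higher without passing (adjusted p = 0.0826), and passed where dim probe sets were left out (adjusted p = 0.0375).

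In the thioredoxin and glutaredoxin list, 0 rose, 4 fell and 6 did not pass of 10. The methionine sulfoxide reductases MSRA and MSRB2, which repair oxidised methionine, fell by 1.47 ± 0.22 (limma adjusted p = 0.000354) and 1.31 ± 0.26 (adjusted p = 0.00206). MSRB2 was at background on 5 of 6 mastitis arrays, so its fall can be larger than printed, and with the GAPDH covariate it was -0.80 (adjusted p = 0.0606). The mitochondrial glutaredoxin GLRX2 fell by 0.99 ± 0.18 (adjusted p = 0.00111), a call lost with scaling to the hybridisation controls (-0.74, adjusted p = 0.189). In glutathione synthesis and reduction, 1 of 5 rose and 4 did not pass. It was GCLC, the catalytic subunit of the rate-limiting enzyme, at 1.19 ± 0.28 (adjusted p = 0.00754), while glutathione reductase GSR had a difference of 1.34 ± 0.49 without passing (adjusted p = 0.0659). With the GAPDH covariate GCLC was 0.73 and did not pass (adjusted p = 0.199), and with dim probe sets left out, without endometritis 5 or without mastitis 2 GSR passed (adjusted p = 0.0298, 0.0426 and 0.0496). Of 6 genes of NADPH supply 1 fell, by 4.92 ± 0.64 (2 of 3 probe sets, adjusted p = 0.000121). It was IDH1, the cytosolic isocitrate dehydrogenase, from which the ruminant udder draws NADPH for milk fat synthesis. TKT and TALDO1 of the pentose phosphate pathway did not pass.

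Glutathione transferases attach glutathione to reactive compounds, and 6 of 9 fell, 0 rose and 3 did not pass, with a median of -1.20. GSTM3 fell by 4.80 ± 0.93 (limma adjusted p = 0.00197) to an average of 2.57 in mastitis, against 7.37 in healthy milk cells. It was at background on 3 of 6 mastitis arrays, so the fall can be larger than printed. MGST2 fell by 1.38 ± 0.33 and GSTK1 by 1.20 ± 0.30 (1 of 3 probe sets), both with no overlap between the groups. With the GAPDH covariate none of these 3 transferases passed, at -3.41 for GSTM3 (limma adjusted p = 0.0642), -0.63 for MGST2 (adjusted p = 0.174) and -0.71 for GSTK1 (adjusted p = 0.233). Among selenoproteins and metal binding proteins 4 of 11 fell, 0 rose and 7 did not pass. The selenium carrier SELENOP fell by 3.31 ± 0.59 (adjusted p = 0.00101), SELENOF of the endoplasmic reticulum by 2.68 ± 0.46 (adjusted p = 0.000815) and SEPHS2, which makes the selenium donor for selenoproteins such as GPX1 and GPX4, by 1.07 ± 0.16 (adjusted p = 0.000334). The SEPHS2 call was lost with scaling to the hybridisation controls (-0.83, adjusted p = 0.0719).

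The NRF2 list held calls in both directions. Of its 15 measured genes 5 rose (33.3%), 1 fell (6.67%) and 9 did not pass in mastitis against healthy. Of all genes 11.3% were called higher and 15.8% lower, with no test of these differences in share. NQO1, a member here, was the gene that fell. It was read near the floor, and its call was lost under several alternatives. NFE2L2, which encodes NRF2, rose by 2.20 ± 0.48 (limma adjusted p = 0.00417) at its brighter probe set. At its other probe set it rose by 1.42 (adjusted p = 0.0437). Its partner MAFG rose by 2.54 ± 0.59 (adjusted p = 0.00614), and SQSTM1, an adaptor that binds the NRF2 inhibitor KEAP1, by 1.45 ± 0.39 (adjusted p = 0.0141). With the GAPDH covariate all 3 calls were lost, at 1.39 for NFE2L2 (adjusted p = 0.123), 1.40 for MAFG (adjusted p = 0.174) and 0.76 for SQSTM1 (adjusted p = 0.326). Besides regulators, HMOX1, listed as a haem target, rose by 2.59 ± 0.88 with overlapping groups, close to the threshold (limma adjusted p = 0.0498). In mastitis against endometritis it did not pass (2.67, limma adjusted p = 0.0534). No other quinone or haem target of the list was called higher. The source of superoxide was higher as well, with 5 of 6 phagocyte oxidase genes called higher and 0 lower. NCF1 rose by 4.89 ± 0.52, NCF4 by 3.10 ± 0.39 and the GTPase RAC2 by 2.61 ± 0.59, and all 3 are normally expressed in neutrophils, whose markers moved with them as given above. With the GAPDH covariate NCF1 and NCF4 still passed, while RAC2 did not (1.42, limma adjusted p = 0.141).

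**Figure D4:**
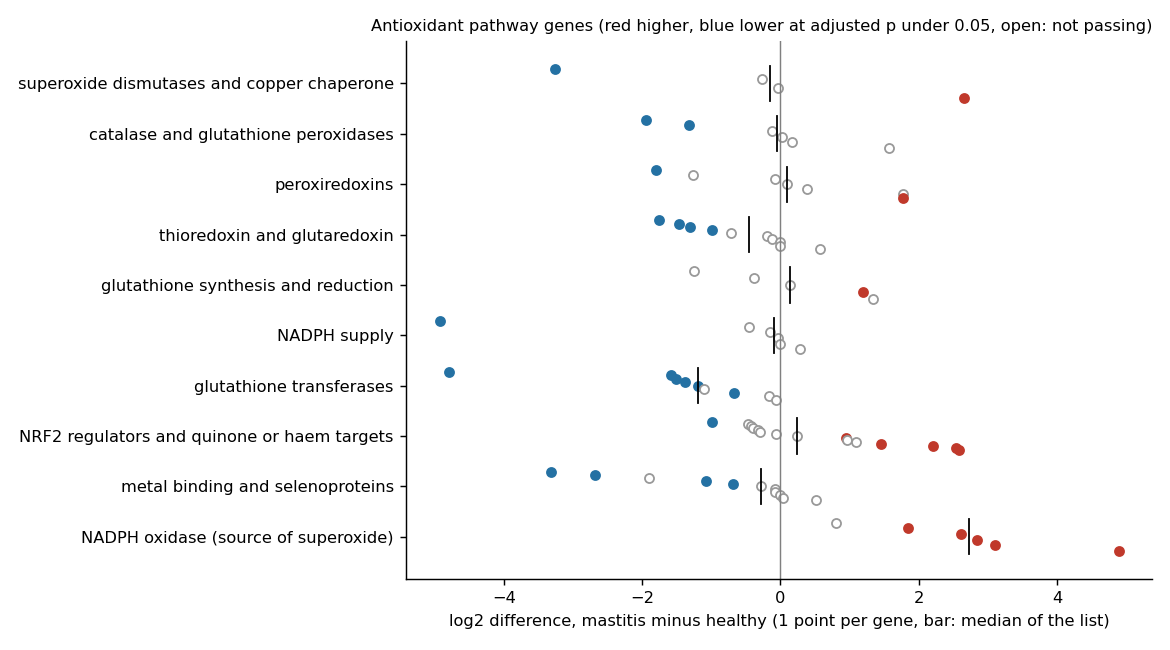
Log2 difference between mastitis and healthy for each measured gene of 10 lists, 1 point per gene at its probe set with the highest mean, with the median of the list as a bar. Blue points (lower) fill the glutathione transferase list, where 6 of 9 fell, red points (higher) fill the oxidase list, where 5 of 6 rose, and the first row shows SOD1 at -3.25 and SOD2 at 2.66.

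Genes whose profile was most like that of each dismutase were found by the root mean square (RMS) difference over the 18 arrays, after each profile was centred on its own mean. For SOD2, whose own SD over the arrays was 1.58, the nearest were GTF2B, a general transcription factor, at 0.54, GSAP at 0.57, the myeloid kinase FGR at 0.59, the endothelin-converting enzyme ECE1 at 0.59 and the inflammatory caspase CASP4 at 0.59. Their differences between mastitis and healthy were 2.25 to 3.27. For SOD1, with an SD of 1.76, the nearest were the translation inhibitor PDCD4 at 0.53, the respiratory chain subunit NDUFA4 at 0.66, the RAF kinase inhibitor PEBP1 at 0.71, the nuclear envelope protein SYNE2 at 0.72 and the replication protein subunit RPA3 at 0.74. These differed by -2.66 to -2.20 between mastitis and healthy, and SYNE2 did not pass with the GAPDH covariate (-1.47, limma adjusted p = 0.159). The median RMS difference over all genes was 1.55 from SOD2 and 1.71 from SOD1. The genes were picked by closeness over these same arrays, so differences like those of SOD2 and SOD1 follow from the choice. GSAP, CASP4 and NDUFA4 had 2 probe sets and ECE1 had 3, of which only the brightest was used here.

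The labels do not explain the number in the sample titles, and it was used only to group the cows by range. Numbers up to 120 were held by 4 mastitis, 1 endometritis and 3 healthy cows. Within that range SOD2 minus SOD1 was 6.17 higher in mastitis than in healthy cows, and it was also 6.17 higher above 120. SOD1 differed by -3.03 and -3.85 and SOD2 by 3.14 and 2.32 in the lower and upper range. With the range as a block in the fit of all arrays, the 5 calls between mastitis and healthy held (largest adjusted p 0.0426, for NQO1). In endometritis against healthy SOD2 minus SOD1 was 1.06 with the single endometritis cow of the lower range and -1.44 in the upper range.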

How the data were processed

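Array values were deposited by the authors as log2 normalised intensity per probe set, read as log2 from their range (2.43 to 14.2). RMA, GCRMA and limma are named in the submitters' processing notes, without roles or versions, and which of the first pair made the values is not given in the sources used here. Per the labels' protocols, 100 ng of RNA with an integrity number above 6 was labelled and 10 µg hybridised. The table held 24128 probe sets, of which 112 controls were left out, and 0 columns belonged to no sample. Gene names came from the platform annotation (13292 probe sets with 1 symbol, 86 with several and 10638 with none); for all 7 member probe sets the Entrez identifier led to the same symbol in RefSeq's ARS-UCD2.0 gene table, used for names only. Sequences and coordinates of the members were not used here.

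All 18 arrays entered 1 linear model of the 3 groups, fitted in R 4.3.3 by the lmFit and eBayes functions of limma 3.58.1 (15 residual and 0.561 prior degrees of freedom), with Benjamini-Hochberg adjustment over 24016 probe sets. Where a gene had several probe sets, the one brightest on average across arrays stood for it, in the lists too. Replicates were separate cows, and their number, 6 per group, limits the precision. The members, the lists and the tests were chosen with earlier results of these data known. Named genes are the members, up to 3 of each pathway list with the smallest p in mastitis against healthy, and the 5 genes nearest to SOD1 and to SOD2. HMOX1 is named besides these, and its values under the alternatives are not given. Alternatives changed the arrays fitted, the filter on dim probe sets, the scaling, the block, the covariate, the weights, the moderation and the probe set, and left out each array in turn. On simulated arrays with 50 of 24016 probe sets moved by each size, the fit for mastitis and healthy recovered 54% of shifts of 1 and 86% of shifts of 2. For endometritis and healthy it recovered 50% and 86%, and for mastitis and endometritis 48% and 88%. All moved probe sets averaged above the array median, and the simulated probe sets varied independently of each other. Few were moved, while 19.5% of probe sets were called between mastitis and healthy in the data. The adjustment of p thus differed, and these rates do not give the power in the data.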

Additional observations from a re-analysis of the deposited data

Results flagged for a closer look

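SOD1 on healthy array 1 stood apart from its group. It read 9.46, while the next healthy array read 10.26 and the highest 10.63, so the gap to its neighbour was 0.681 of the group's range, above the critical value of Dixon's test for 6 values. This array also had the highest summed neutrophil markers of the healthy cows (60.7), and without it the SOD1 difference between mastitis and healthy was -3.43 in limma. The second GPX1 probe set was low on 1 healthy array, at 2.44 against 2.46 to 2.47 on the others (0.769 of the range), and all of these values lie at background. Of 24 groups tested in this way, chance flags about 1 in 20.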

How the results depend on the processing

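The rise of SOD2 and the falls of SOD1 and CAT in mastitis against healthy passed under every alternative run except within title numbers up to 120, with 4 mastitis and 3 healthy arrays, where they were 3.14 (adjusted p = 0.0562), -3.03 (0.0965) and -1.42 (0.448). That range and the range above 120 were chosen after seeing the data. Without each array in turn, SOD1 was -3.50 to -3.04, SOD2 2.46 to 2.85, CAT -2.31 to -1.70 and SOD2 minus SOD1 5.59 to 6.35. GPX4 did not pass with the GAPDH covariate (-1.50), with scaling to hybridisation controls (-1.08), above 120 (-1.40) or up to 120 (-1.37). NQO1 did not pass under the same 4 settings (-0.69, -0.74, -1.73 and -0.48) or with array weights (-0.90, adjusted p = 0.0546), and was -1.15 to -0.86 without each array. GPX1 passed with arrays centred on bright probe sets (1.56, adjusted p = 0.0443), with dim probe sets left out (1.56, 0.0314, from fewer probe sets tested) and without healthy 1, healthy 6 or endometritis 3, over a range of 1.22 to 1.89 without each array. The count of members called was 3 with the covariate, with the control scaling and above 120, 0 up to 120, and 4 to 6 without each array. Probe sets called between mastitis and healthy, 4689 in the report's fit (2443 higher and 2246 lower), were 1428 with the covariate, 2990 with the control scaling (2043 higher and 947 lower), 2347 above 120 and 119 up to 120.

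In mastitis against endometritis, the report's 3493 probe set calls became 2069 with the control scaling and 813 up to 120, where SOD1 (-2.89), SOD2 (2.22) and CAT (-1.95) did not pass and 0 members were called. That range holds 1 endometritis array, which is assumed to vary like the other groups. With dim probe sets left out 5 members passed, GPX1 (1.51) and NQO1 (-0.95) added, and 3 to 5 did without each array, with GPX4 at -1.05 to -0.68 and NQO1 at -1.10 to -0.78. In endometritis against healthy, 1 probe set was called with array weights, either scaling, dim probe sets left out or trend and robust moderation, 4 above 120, 531 up to 120, and 0 to 1 without each array. Member differences that changed sign there did not pass in either direction: SOD1 with weights (-0.034), centring (-0.038), up to 120 (-0.14) and over -0.23 to 0.21 without each array; SOD2 up to 120 (0.92), where SOD2 minus SOD1 was 1.06; GPX1 with the covariate (-0.69), at its other probe set (-0.0019) and over -0.28 to 0.41; NQO1 with the covariate (0.15), the control scaling (0.16), up to 120 (0.35) and over -0.21 to 0.11. Of 1089 values of 39 other named genes, 1025 kept their direction and side of the threshold, 52 no longer passed, 4 newly passed and 8 changed sign without passing: SOD3 (0.21) and GPX7 (0.13) with the control scaling, CCS with the covariate (0.11), weights (0.22) and up to 120 (0.20), GPX2 with the covariate (-0.0070) and weights (-0.018), and TKT above 120 (-0.14). The cause of these changes was not tested. No paired analysis was possible because each array came from a separate cow and the groups share no title numbers.

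Signal near the floor limits NQO1, MSRB2, GSTM3, MGST2, SOD3, GPX2, GPX3, GPX7 and the second GPX1 probe set, whose differences can be understated. MGST2 averaged 2.78 in mastitis. The same limit holds for GCLC and ECE1, which averaged 2.81 and 2.95 in healthy milk cells. The number of arrays limits every result.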
